A study of Mus musculus with 44 samples.

Results

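Pck1, Fbp1, Pklr and Slc2a2 are 4 listed genes of hepatic glucose and fructose handling, out of 21887 protein-coding mouse genes. They were chosen by name, and their histone marks were read in all 44 peak lists as the bases covered by peaks within 2500 bp of the transcription start and over the gene with 25 kb on each side. The lists came from CUT&Tag-type profiling, where the Tn5 transposase is tethered by antibody to a histone mark and cuts there, of liver cells between hepatocyte and biliary identity. Each of H3K4me3, H3K27ac, H3K4me1 and H3K27me3 had 11 libraries.

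Per the labels' protocols, all animals were Rosa26-LSL-Cas9-EGFP mice given AAV8-TBG-Cre (5e11 genome copies each), so that Cre under the hepatocyte TBG promoter switches on EGFP, although the genotype field reads wild type. Hep, the starting hepatocytes with n = 2 libraries per mark, were taken from mice on normal diet and isolated on a Percoll gradient. The other 4 stages came from mice fed 0.1% DDC, a bile duct toxicant, for 8 to 9 weeks from 1 week after the virus. Early cells (n = 2) were EGFP+ and CD24-, intermediate cells (n = 2) were EGFP+, CD24+ and EPCAM-, and late cells (n = 3) were EGFP+, CD24+ and EPCAM+. Biliary epithelial cells (BEC, n = 2) were EGFP- and EPCAM+, so they were selected for lack of the hepatocyte label. No ages are stated. Hep differs from every other stage in diet and isolation as well as in stage, and these cannot be told apart in a comparison with Hep. The labels do not say that replicates came from separate mice, so p-values measure the spread between libraries only.

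H3K4me3 marks the starts of active genes, H3K27ac active promoters and enhancers, H3K4me1 enhancers in general, and H3K27me3 regions held silent by Polycomb. Slc2a2 encodes GLUT2, the low-affinity carrier that lets glucose and fructose cross the hepatocyte membrane in both directions. Pklr encodes the liver and red cell pyruvate kinase, the last step of glycolysis, which a sugar-rich diet induces. Pck1 encodes cytosolic phosphoenolpyruvate carboxykinase, the step that commits carbon to gluconeogenesis and is induced in fasting through cAMP. Fbp1 encodes fructose-1,6-bisphosphatase, a later step of the same pathway. Bile duct cells are not a site of net glucose output.

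RefSeq promoter sequence (GRCm38.p6, 250 bases before the start and 50 from it) is shown for Pck1, which lost H3K4me3 peaks in every late library, and for the liver start of Pklr, which held them in every library. Capitals mark a cAMP response element and a TATA-like element in Pck1, and a carbohydrate response element and a TATA box in Pklr.
Pck1, chr2:173152823-173153122, plus strand: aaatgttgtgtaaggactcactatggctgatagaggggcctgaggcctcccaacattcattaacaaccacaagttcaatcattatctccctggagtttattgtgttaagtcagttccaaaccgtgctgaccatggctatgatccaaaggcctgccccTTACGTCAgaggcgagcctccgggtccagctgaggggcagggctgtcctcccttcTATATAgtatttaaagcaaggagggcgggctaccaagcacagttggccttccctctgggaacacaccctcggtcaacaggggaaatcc
Pklr liver start, chr3:89136373-89136672, plus strand: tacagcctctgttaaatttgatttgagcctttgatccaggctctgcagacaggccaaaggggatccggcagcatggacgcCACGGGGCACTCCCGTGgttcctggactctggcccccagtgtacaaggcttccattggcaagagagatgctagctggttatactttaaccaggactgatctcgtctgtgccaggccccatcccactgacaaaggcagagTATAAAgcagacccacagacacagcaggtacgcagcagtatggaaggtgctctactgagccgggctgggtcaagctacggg

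The letters searched on both strands, for all 8 motifs, were TNACGTCA for the cAMP response element, TATATA for the TATA-like element, TATAAA for the TATA box, AAAGTCCA for HNF4, TGTTTAC for FOXA, CACGTG for the E-box and GGGCGG for the GC box. The carbohydrate response element was CACGNG and CNCGTG with 5 bases between, which contains the E-box in some spellings. In Pck1 the cAMP response element lay at -93 to -86 and the TATA-like element at -38 to -33, counting the first transcribed base as 0. They were present in 3.45% and 5.54% of 21263 RefSeq promoters. In Pklr the carbohydrate response element lay at -170 to -154 from the liver start and the TATA box at -31 to -26, and these were present in 0.0658% and 12.6% of promoters. A GC box (46.2% of promoters) was found at -16 to -11 of Pck1 and at -84 to -79 of Fbp1, and none of the 8 was found in the same window of Slc2a2. A match describes the letters and is not evidence that a factor binds.

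The number of peaks in a library ran from 19356 to 33762 in H3K4me3, from 23511 to 51807 in H3K27ac, from 12785 to 77991 in H3K4me1 and from 2343 to 16597 in H3K27me3, and read depth is unknown. Covered length differed between stages and with it the level at all genes, so each change is also given relative to the median of all genes tested. That median was -0.66 (log2 of bp + 100) for H3K4me3 in late minus Hep, and -0.92, -0.81 and -0.69 for H3K27ac in early, late and BEC minus Hep. For H3K4me1 it was -1.45, -1.44 and -1.34 in the same order. For H3K27ac, 81.1% of the promoters called in late against Hep were lower, against 42.9% after quantile normalization, 39.2% with peaks resized to 500 bp and 87.4% with equal numbers of top-scored peaks. In BEC against Hep the share was 70.1%, against 44.6%, 45% and 77.9%. In early against Hep it was 96.7%, against 16%, 88.3% and 89.9%. For H3K4me3 in the same order of settings, late against Hep gave 48%, against 41.9%, 9.69% and 75.5%, BEC against Hep 25.6%, against 46.2%, 21.1% and 35.4%, and early against Hep 47.2%, against 43.9%, 23.8% and 69.5%. For H3K4me1, late against Hep gave 98.5%, against 63.1%, 92.8% and 96.7%, and BEC against Hep 95.5%, against 40.4%, 93.3% and 90.9%. Peaks of late 1 were short in every mark (shortest peak under 100 bp), as were those of intermediate 1 for H3K4me3 and late 3 for H3K4me1.

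The stages were checked against markers of the cells they are named for. All 10 hepatocyte markers had an H3K4me3 peak in both Hep libraries, with 8921 to 9786 bp summed over their promoters, 6 to 8 had one in late libraries (727 to 4910 bp) and 4 to 5 in BEC (2110 to 2731 bp). Of 10 biliary markers, 2 to 3 had an H3K4me3 peak in Hep (2804 to 2960 bp) and all 10 in late (2276 to 7712 bp) and BEC (11664 to 11705 bp). In Hep, 7 of them were at 0 in both libraries (Anxa2, Cd24a, Cftr, Cldn4, Krt19, Krt7 and Spp1), and in BEC Apoc3, Asgr1, Cps1, Serpina1a and Tat were at 0. H3K4me3 of the 7 macrophage and Kupffer markers and of the 8 lymphocyte and neutrophil markers was at 0 in all 11 libraries. Of 8 stellate and fibroblast markers, 2 had H3K4me3 in intermediate (356 to 557 bp) and BEC (735 to 1306 bp) and 1 to 2 in late (62 to 727 bp), and none in Hep or early. Of 7 endothelial markers at most 2 had any (0 to 400 bp). For H3K27ac, macrophage markers summed to at most 393 bp, endothelial to at most 386 and stellate and fibroblast to at most 216. Late and BEC libraries thus had fewer hepatocyte markers and more biliary markers with an H3K4me3 peak than Hep, although the summed biliary coverage of late 1 (2276 bp) was below Hep, and their part in the results below was not tested. In bulk material, fewer cells that carry a mark and less mark per cell cannot be told apart.

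Slc2a2 (GLUT2; GRCm38.p6 chr3:28697903-28728361, plus strand) had its widest active marks in Hep. H3K4me3 within 2500 bp of its start covered 1362 and 1527 bp in Hep, 698 and 1402 in early, 318 and 788 in intermediate, 122, 588 and 0 in late, and 219 and 244 in BEC. Late and BEC lay below both Hep libraries without overlap, and early 2 was as wide as Hep. Late minus Hep was -2.64 ± 0.65 (SE; limma, adjusted p = 0.0233), or -1.98 relative to all genes. BEC minus Hep was -2.22 ± 0.72 and did not pass (adjusted p = 0.0557). The late call was lost when Hep 1, Hep 2, late 1 or late 3 was left out (adjusted p 0.105, 0.112, 0.0697 and 0.106), and under 5 of 8 other settings, among them quantile normalization (0.135) and peaks resized to 500 bp (0.248).

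H3K27ac at the Slc2a2 start covered 1287 and 1187 bp in Hep, 340 and 422 in early, 901 and 646 in intermediate, 292, 519 and 735 in late, and 237 and 356 in BEC. Every other stage lay below Hep. Hep was followed by intermediate, late, early and BEC in order of mean, and neighbouring groups in that order overlapped except Hep with intermediate. The change from Hep was -1.48 ± 0.41 in early (limma, adjusted p = 0.029), -1.19 ± 0.37 in late (0.0454) and -1.77 ± 0.41 in BEC (0.0154), and -0.56, -0.38 and -1.07 relative to all genes. After quantile normalization the early and late calls were lost (adjusted p = 0.383 and 0.533), and so were the late and BEC calls with peaks resized to 500 bp (0.316 and 0.0774) and all 3 with equal numbers of top-scored peaks (0.836, 0.333 and 0.0621). The early call was also lost without Hep 1, Hep 2, early 1 or early 2 (0.134, 0.135, 0.0937 and 0.0543), and the late call without Hep 1, Hep 2, late 1, late 2, BEC 1 or BEC 2 (0.204, 0.197, 0.104, 0.0587, 0.0563 and 0.0562), and the BEC call without Hep 1, Hep 2 or BEC 1 (0.104, 0.093 and 0.0914).

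Slc2a2, the longest of the 4 genes at 30459 bp, had the most H3K27ac bases of the 4 loci in every library, and no other protein-coding gene reached into its locus. H3K27ac over the gene and 25 kb on each side covered 4883 and 4786 bp in Hep, 3445 and 2982 in early, 4051 and 3061 in intermediate, 1808, 2838 and 2547 in late, and 1602 and 2532 in BEC. Late minus Hep was -1.01 ± 0.35 (limma, adjusted p = 0.0389) and BEC minus Hep -1.22 ± 0.38 (0.0314), and -0.17 and -0.60 relative to all genes. Both lost the call without Hep 1 or Hep 2 (late 0.181 and 0.187, BEC 0.16 in both cases), late also without late 1 or late 3 (0.0874 and 0.07) and BEC without BEC 1 (0.244).

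Joined over libraries within 500 bp, the H3K27ac peaks formed 12 sites at Slc2a2, 11 of them in 2 or more libraries. They are described without a test. A site in the gene body at 23754 to 24371 bp from the start was present in all 11 libraries, with 465 and 435 bp in Hep, 323, 461 and 315 in late and 392 and 396 in BEC. The site at 7671 to 8880 bp was also present in all 11 libraries, and so was one past the gene at 38994 to 39747 bp. An upstream site at -16343 to -15563 bp (482 and 598 bp in Hep) and a gene-body site at 15903 to 16745 bp (762 and 719 bp) were present in every Hep, early and intermediate library, in 2 of 3 late libraries and in neither BEC library. A downstream site at 36687 to 37375 bp was absent from both Hep libraries and present in the other 9, with 241 and 381 bp in early, 554 and 471 in intermediate, 442, 479 and 408 in late and 451 and 669 in BEC. H3K4me1 had no peak there in Hep or early 1, and it covered 240 bp in early 2 and 437 and 416 in intermediate. H3K4me3 in the gene body (7796, 16332 and 24069 bp from the start) was confined to the 2 Hep libraries at 3 sites of 135 to 286 bp. H3K4me3 over the whole locus covered 2042 and 2176 bp in Hep, 122, 588 and 0 in late and 219 and 244 in BEC, and passed in late minus early, late minus Hep and BEC minus Hep (limma, adjusted p = 0.0171, 0.000135 and 0.00156). The late and BEC calls against Hep were lost with no filter on low values (0.194 and 0.296) and with peaks resized to 500 bp (0.104 and 0.178). Both were also lost without the short-peak libraries. Without early 2, late 1 or late 3, the late minus early call was lost (0.536, 0.148 and 0.278), as it was under all 8 other settings (highest 0.632).

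Pklr (chr3:89136122-89146815, plus strand) kept H3K4me3 and H3K27ac at its start in all 22 libraries of those marks and passed the test in no comparison of the 7. RefSeq places 2 starts 481 bp apart, the upstream one being that of the red cell enzyme and the downstream one that of the liver enzyme, and both gave 7868 bp of H3K4me3 summed over 11 libraries. H3K27ac summed to 5062 bp around the upstream start and 4678 around the downstream one. The window and all distances below were therefore set from the upstream start. The H3K4me3 peaks lay around the downstream start, from 252 bp to 1716 bp after the upstream one. H3K4me3 covered 972 and 918 bp in Hep, 1332 and 940 in early, 507 and 730 in intermediate, 275, 678 and 595 in late and 557 and 364 in BEC. Intermediate, late and BEC lay below both Hep libraries, and early overlapped Hep. Late minus Hep was -0.83 ± 0.47 (limma, adjusted p = 0.256), which is -0.17 relative to all genes, and BEC minus Hep was -0.92 ± 0.51 (0.494).

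H3K27ac at the Pklr start covered 646 and 799 bp in Hep, 584 and 335 in early, 565 and 426 in intermediate, 292, 299 and 462 in late and 257 and 397 in BEC. All other libraries lay below both Hep libraries. The difference from Hep was -0.88 ± 0.34 in late (limma, adjusted p = 0.0808) and in BEC -0.96 ± 0.38 (0.0965), and relative to all genes these were -0.07 and -0.27. By the authors' deposited score, the strongest H3K4me3 peak at the Pklr start ranked in the top 0.71% and 0.27% of peaks of Hep 1 and Hep 2. In the other 9 libraries it ranked between 0.8% and 38.48% from the top, and since the lists differ in length no change is read from these ranks.

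The H3K27ac sites around Pklr are described here without a test. A site upstream at -13068 to -11834 bp had no peak in Hep or early and was present in every intermediate (400 and 325 bp), late (279, 424 and 273 bp) and BEC library (294 and 524 bp). A site at 11574 to 12160 bp was likewise absent from Hep and early and present in all intermediate and late libraries and in BEC 1 (163 bp). A site at -2420 to -2166 bp was present only in the 2 Hep libraries (129 and 255 bp). Sites at -23219 to -22543 bp and at the start were present in all 11 libraries. The locus also holds the starts of Clk2 and Gm45927 (28653 bp from the Pklr start) and all of Hcn3 (chr3:89146775-89160284). The end of Hcn3 nearer to Pklr lies at 10633 bp, and which end is its start was not settled here. The summed coverage of the locus includes the promoters of these genes. That coverage for H3K27ac was 1941 and 1820 bp in Hep, 944 and 919 in early, 2362 and 1863 in intermediate, 1254, 1587 and 1163 in late, and 1079 and 1873 in BEC.

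Pck1 (chr2:173153073-173159274, plus strand) lost all H3K4me3 at its start by the late stage. Coverage was 1126 and 629 bp in Hep, 871 and 1028 in early, 287 and 580 in intermediate, 0 in all 3 late libraries and 0 in both BEC libraries. Hep and early overlapped, intermediate lay below both, and late and BEC had no peak. The differences passed for late against early (limma, adjusted p = 0.00127), late against Hep (0.000537) and BEC against Hep (0.000503), and intermediate against early did not (-1.03 ± 0.49, adjusted p = 0.665). Late against intermediate, where no late library had a peak, did not pass (limma, adjusted p = 0.542), with 213 promoters in all at an unadjusted p under 0.05 and none after adjustment. No fold is given where a group has no peak. Late against Hep was called in all 11 fits that left out a library (adjusted p 6.37e-05 to 0.0292), and with equal numbers of top-scored peaks it was 0.0529. Late against early was lost without early 2 (0.0829) and with equal numbers of top-scored peaks (0.374).

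H3K27ac at the Pck1 start was narrower in early, late and BEC than in Hep. It covered 681 and 730 bp in Hep, 329 and 226 in early, 609 and 645 in intermediate, 127, 141 and 0 in late, and 0 in both BEC libraries. Intermediate lay just below Hep and above early, and 2 late libraries had H3K27ac where no late library had H3K4me3. The late H3K27ac lists were longer (38040 to 51807 peaks) than the late H3K4me3 lists (26718 to 31112), so no order of loss is read. Late minus Hep was -2.19 ± 0.40 (limma, adjusted p = 0.0079; -1.38 relative to all genes), BEC against Hep passed (0.00275), and early minus Hep was -1.11 ± 0.44 (0.086). The late call was lost without Hep 1 or Hep 2 (0.081 and 0.092) and with peaks resized to 500 bp (0.261), while BEC against Hep was called in all 11 fits that left out a library (0.00309 to 0.0358). The position of the peaks differed too. In both early libraries the single peak ended at -327 or -426 bp, upstream of the printed bases. The remaining peaks of late 1 and late 2 ran from -162 to -36 and from -162 to -22 bp, over the printed cAMP response element.

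The 5 H3K27ac sites away from the Pck1 start are described here without a test. Sites at -9560 to -8655 bp and -6310 to -5975 bp were present in both Hep, both intermediate, all 3 late and 1 of the 2 early libraries. The first covered 504 and 228 bp in Hep, 416 and 290 in intermediate and 89, 206 and 169 in late. A site at -5039 to -4787 bp was present only in Hep (244 and 191 bp). A site further downstream, at 16916 to 17495 bp, was present in both Hep (360 and 352 bp), both early (580 and 258 bp) and both intermediate libraries (326 and 265 bp), in late 2 (158 bp) and in neither BEC library. A site just past the gene at 6300 to 6819 bp (chr2:173159373-173159892) had no peak in Hep, early or BEC and was present in intermediate (268 and 165 bp) and late (162, 211 and 264 bp). H3K4me1 was present at that place in all 3 late libraries (316, 374 and 116 bp), in intermediate 1 (132 bp) and in BEC 2 (126 bp), and H3K4me3 in BEC 1 only (312 bp). H3K27ac over the whole Pck1 locus covered 2125 and 1653 bp in Hep, 909 and 848 in early, 1833 and 1597 in intermediate, 509, 833 and 560 in late, and 0 in both BEC libraries.

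BEC had less H3K27ac over the Pck1 locus than late cells (limma, adjusted p = 0.00312) and this was the only call between BEC and late among the 4 genes in H3K4me3, H3K27ac and H3K4me1. BEC against Hep (3.89e-05) and late minus Hep (-1.45 ± 0.33, adjusted p = 0.00677, -0.62 relative to all genes) passed as well. Without BEC 1 or BEC 2 the comparison with late was lost (0.0646 and 0.145), and late minus Hep was lost without Hep 1 or Hep 2 (0.095 and 0.0505) and after quantile normalization (0.0856). H3K4me3 over the locus covered 1465 and 1202 bp in Hep, 871 and 1219 in early, 287 and 580 in intermediate, 0 in the 3 late libraries and 312 and 0 in BEC. It was lower in late than in early (6.08e-05) and in late and BEC than in Hep (2.33e-06 and 0.000634). The BEC call was lost without BEC 2 (0.282).

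Fbp1 (chr13:62864753-62888298, minus strand, start at 62888282) kept H3K4me3 at its start in all 3 late libraries, where Pck1 had none. H3K4me3 at its start covered 926 and 1036 bp in Hep, 888 and 1509 in early, 503 and 931 in intermediate, 250, 1053 and 782 in late, and 221 and 0 in BEC. Early and late overlapped Hep, with late 1, a library of short peaks, the lowest, and BEC lay below all other libraries. Late minus Hep was -0.61 ± 0.60 (limma, adjusted p = 0.423) and 0.05 relative to all genes. BEC minus Hep was -2.59 ± 0.66 (0.0131), or -2.71 relative to all genes, and BEC minus late was -1.98 ± 0.60 (0.196). The BEC call was lost without Hep 2 or BEC 2 (0.0549 and 0.226).

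H3K27ac at the Fbp1 start was reduced in most libraries outside Hep. It covered 706 and 712 bp in Hep, 0 and 194 in early, 278 and 0 in intermediate, 82, 477 and 0 in late and 0 in both BEC libraries. BEC against Hep passed (limma, adjusted p = 0.0339), and early minus Hep (-2.24 ± 0.85, adjusted p = 0.0772) and late minus Hep (-1.89 ± 0.78, adjusted p = 0.0936) did not. The BEC call was lost without Hep 1, Hep 2, late 1, BEC 1 or BEC 2 (0.12, 0.126, 0.0531, 0.106 and 0.107). H3K4me3 therefore stood at the Fbp1 start without an H3K27ac peak in early 1, intermediate 2, late 3 and BEC 1, whereas at Pck1 late 1 and late 2 showed the converse. These are libraries of separate marks, and the labels do not say whether equal numbers mark shared cells.

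An upstream H3K27ac site of Fbp1 at -20386 to -19599 bp covered 688 and 563 bp in Hep, 462 in each early library, 323 and 676 in intermediate, 166, 236 and 0 in late and 0 in BEC. A nearer one at -5604 to -5236 bp was present in Hep (369 and 234 bp) and intermediate 1 (120 bp). The locus holds the start of Fbp2, the muscle isoenzyme, 29882 bp downstream of the Fbp1 start, and a site at 29386 to 29762 bp beside it had no peak in Hep and 263 and 336 bp in early. H3K27ac over the locus covered 1763 and 1677 bp in Hep, 725 and 1573 in early, 913 and 940 in intermediate, 344, 1064 and 120 in late, and 0 and 126 in BEC. The late difference from Hep was -1.91 ± 0.61 (limma, adjusted p = 0.0289) and BEC minus Hep -3.60 ± 0.67 (0.00225), and -1.07 and -2.98 relative to all genes. Of 8 other settings, 2 kept the late call, which was lost after quantile normalization (0.202) and with peaks resized to 500 bp (0.815), among others. The BEC call was kept in 7 and lost with resized peaks (0.0726). The late call was lost without Hep 1, Hep 2, late 1 or late 3 (0.0993, 0.099, 0.0852 and 0.0861). H3K4me3 over the locus was lower in BEC than in Hep (-2.58 ± 0.68, limma, adjusted p = 0.00486). That call was lost without BEC 2 and without late 1 (0.0536). Of 8 other settings, 3 kept it, and it was lost with peaks resized to 500 bp (0.154), among others.

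**Figure D1:**
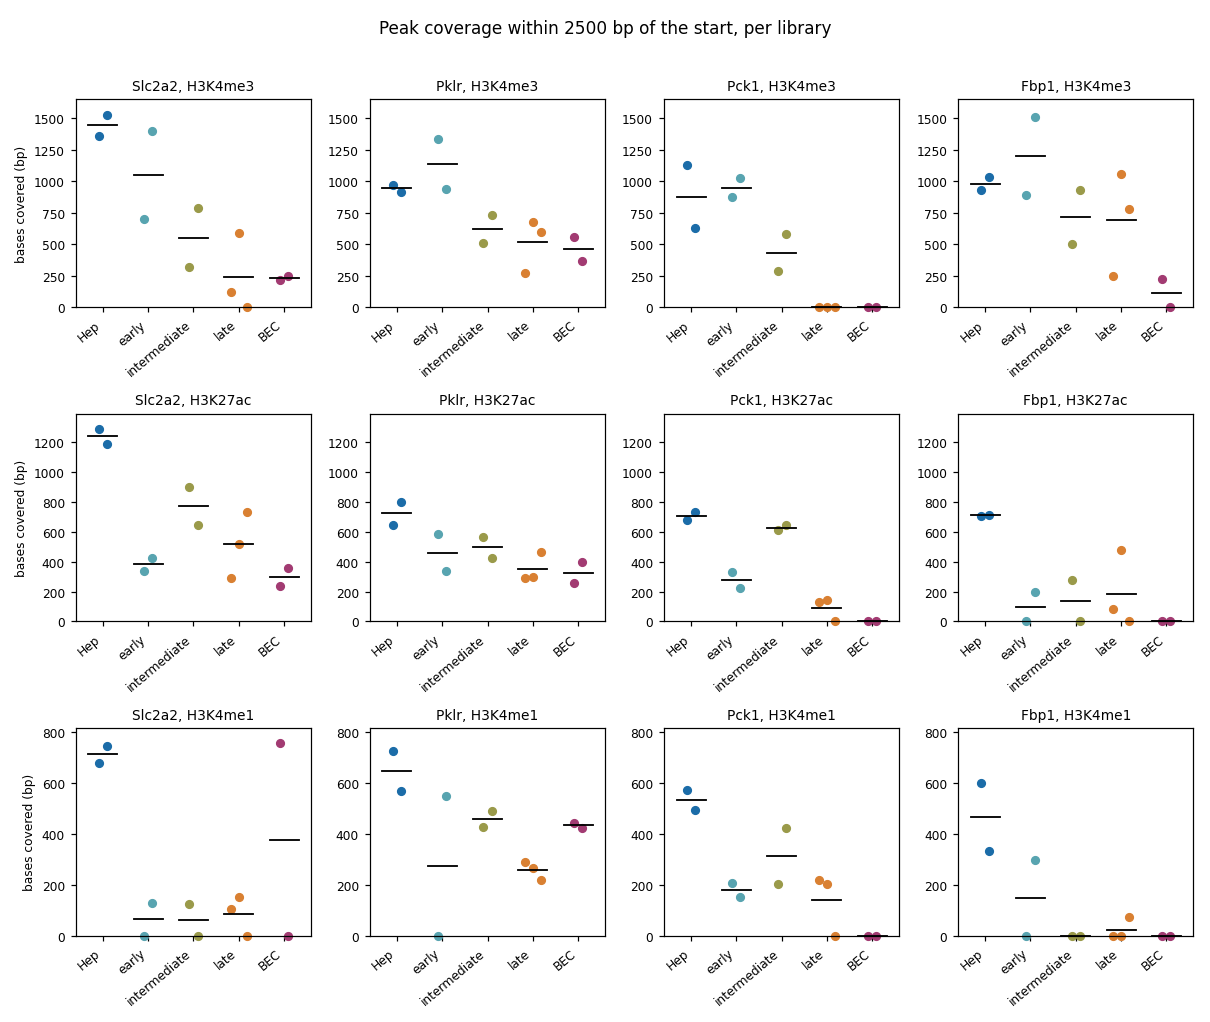
Bases covered by H3K4me3, H3K27ac and H3K4me1 peaks within 2500 bp of the start (y axis, bp, from 0) in each library of the 5 stages (x axis), with a bar at the mean of each stage. H3K4me3 at Pck1 is 0 in all late and BEC libraries, Pklr has H3K4me3 and H3K27ac in every library, and H3K27ac at Fbp1 is 706 and 712 bp in Hep and between 0 and 477 bp in the other libraries.

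**Figure D2:**
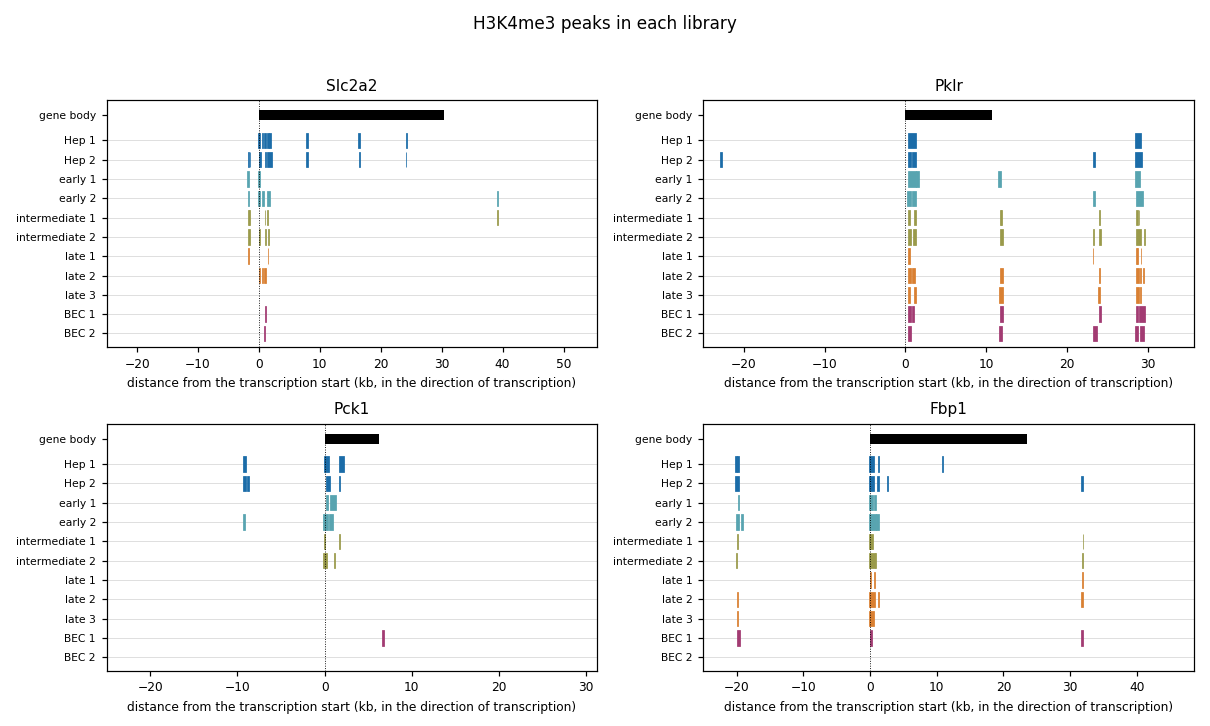
H3K4me3 peaks of each library (rows) against the distance from the start in kb in the direction of transcription (x axis), with the gene body as a black bar on top. Start-site peaks are present in all libraries at Pklr and end at the intermediate stage at Pck1, and gene-body peaks of Slc2a2 are seen in the 2 Hep libraries.

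**Figure D3:**
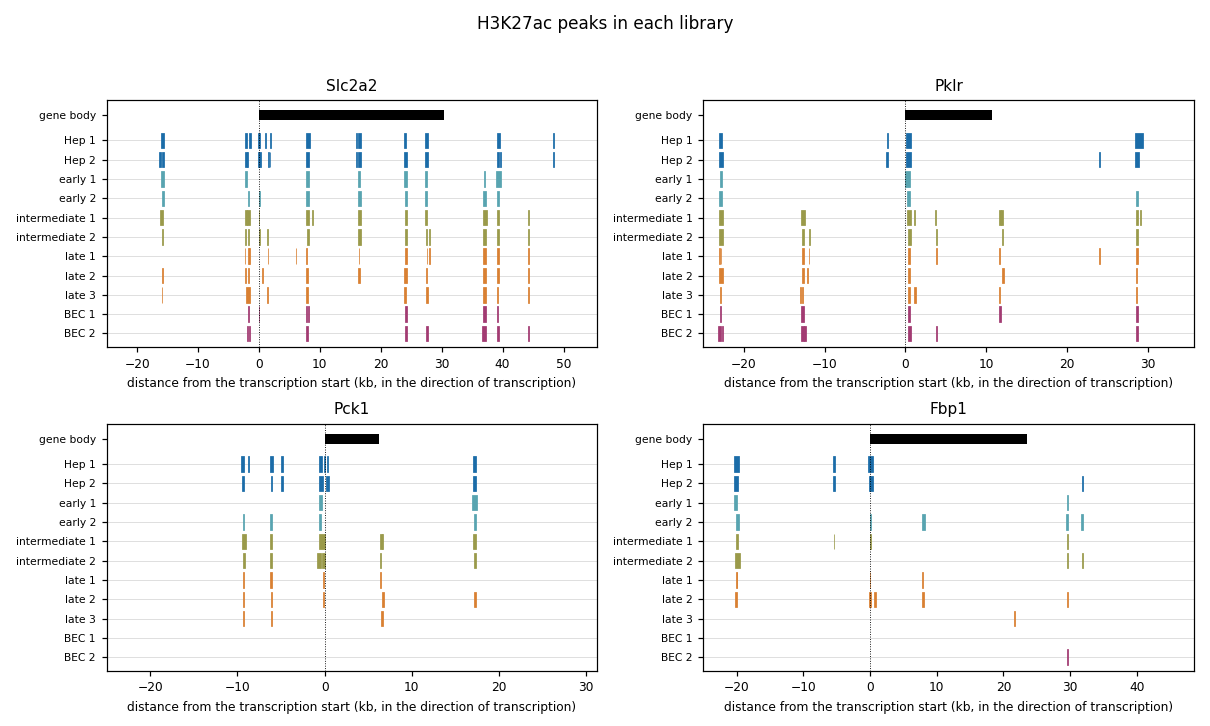
H3K27ac peaks of each library (rows) against the distance from the start in kb in the direction of transcription (x axis), with the gene body as a black bar on top. The Pck1 locus is empty in both BEC libraries, the site just past the Pck1 gene is present in intermediate and late libraries only, and the site at -13068 bp of Pklr in all intermediate, late and BEC libraries but not in Hep or early.

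**Figure D4:**
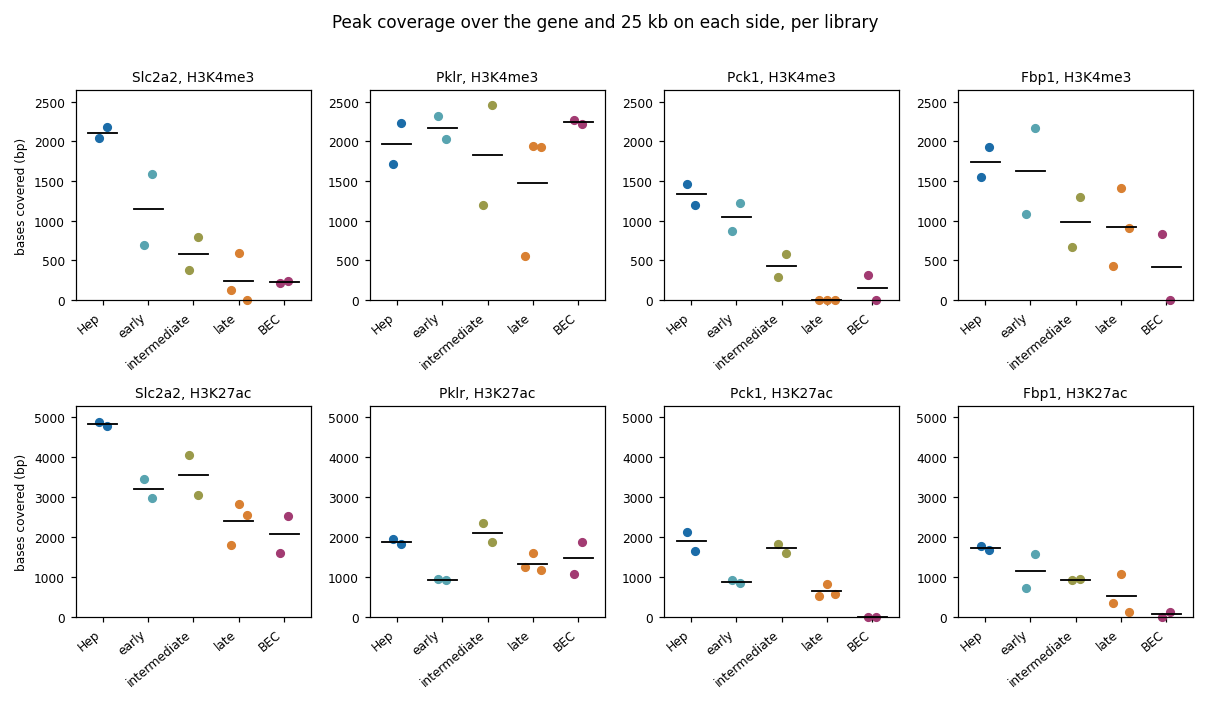
Bases covered by H3K4me3 and H3K27ac peaks over each gene and 25 kb on each side (y axis, bp, from 0) in each library of the 5 stages (x axis), with a bar at the mean of each stage. H3K27ac at Slc2a2 runs from 4883 bp in Hep 1 to 1602 bp in BEC 1, while at Pck1 it ends at 0 in both BEC libraries.

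Set side by side over the stages, no member passed as higher in the comparisons counted here. For H3K4me3 at the start, 0 of 4 members were lower in early than in Hep (limma, 0 also at an unadjusted p under 0.05), against 0.312% of 13476 promoters. None was lower in intermediate than in early (0 unadjusted, 0.193% of promoters), and none in late than in intermediate (1 unadjusted, Pck1), where 0% of all promoters were called lower and 213 had an unadjusted p under 0.05 in either direction. Late against early called 1 of 4 lower, Pck1 (1.48% of promoters), and late against Hep 2 of 4, Pck1 and Slc2a2 (3.07%). BEC against late called none (1 unadjusted, Fbp1, 0.0668%), and BEC against Hep called Pck1 and Fbp1 (3.12%). The members' median was -1.73 in late minus Hep and -2.40 in BEC minus Hep, beside -0.66 and 0.12 for all promoters. These contrasts share the Hep libraries.

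For H3K27ac at the start, early against Hep called 1 of 4 lower, Slc2a2, where 24.5% of 12570 promoters were lower. Intermediate against early called none (limma, 0 unadjusted, 0.27%), late against intermediate none (1 unadjusted, Pck1, 0.00796%), late against early none (1 unadjusted, Pck1, 1.12%) and BEC against late none (0 unadjusted, 0.143%). Late against Hep called Pck1 and Slc2a2, where 19.2% of all promoters were lower, and BEC against Hep called Pck1, Fbp1 and Slc2a2 (14.6%). The members' median was -1.29, -1.54 and -2.39 in early, late and BEC minus Hep, beside -0.92, -0.81 and -0.69 for all promoters. With so large a share of all promoters lower, the members' counts for this mark say little about these genes in particular.

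Over the locus, H3K4me3 called Pck1 and Slc2a2 lower in late than in early (1.76% of 16285 genes) and in late than in Hep (4.73%), and Pck1, Fbp1 and Slc2a2 in BEC than in Hep (2.94%). H3K27ac over the locus called the same 3 genes lower in late than in Hep, where 34.2% of 16896 genes were lower, Pck1 alone in BEC than in late (0.426%), and all 3 in BEC than in Hep (21.5%).

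By stage mean, H3K4me1 in the window at the start was highest in Hep for each member, although BEC 1 at Slc2a2 (757 bp) was above both Hep libraries. At Pck1 it covered 573 and 494 bp in Hep, 208 and 154 in early, 203 and 422 in intermediate, 218, 203 and 0 in late and 0 in BEC. At Fbp1 it covered 601 and 335 bp in Hep, 0 and 299 in early, 0 in intermediate, 0, 0 and 73 in late and 0 in BEC. Pck1 and Fbp1 were lower in late (limma, adjusted p = 0.0428 and 0.0185) and in BEC than in Hep (0.00997 and 0.0178), where 40.2% and 34.6% of 13544 promoters were lower. None of the 4 was called in early against Hep (2 unadjusted), where 33.1% were. Relative to all genes late minus Hep was -0.13 at Pck1 and -0.76 at Fbp1. After quantile normalization the late calls were lost (0.962 and 0.73), as they were without Hep 1 (0.145 and 0.0968) or Hep 2 (0.18 and 0.127), and at Pck1 also without early 1, early 2, late 3, BEC 1 or BEC 2 (0.056, 0.0556, 0.0704, 0.0537 and 0.0544) and at Fbp1 without late 1 (0.0513). The BEC calls were lost without Hep 1 (0.056 and 0.0874) or Hep 2 (0.116 in both), and at Fbp1 without BEC 1 or BEC 2 (0.0538 and 0.0654).

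At Pklr H3K4me1 covered 726 and 570 bp in Hep, 0 and 549 in early, 428 and 491 in intermediate, 289, 265 and 218 in late and 445 and 424 in BEC. Every late library lay below every intermediate and BEC library, and these differences did not pass (limma, adjusted p = 1). At Slc2a2 it covered 681 and 745 bp in Hep, 0 and 128 in early, 125 and 0 in intermediate, 107, 153 and 0 in late, and 757 and 0 in BEC. The 2 BEC libraries differed as widely as the stages, and BEC 2 held far fewer H3K4me1 peaks (25001 against 62294).

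H3K27me3 was nearly absent from the 4 genes. Within 2500 bp of the starts the 11 libraries held 2 peaks, both at Pklr, of 169 bp in Hep 2 and 50 bp in late 1. No library had a peak over the Slc2a2 locus. Over the Pck1 locus there were 784 bp in 3 peaks in BEC 1 and 168 bp in late 3, and BEC minus Hep did not pass (limma, adjusted p = 0.465). Over Fbp1 there were 50 bp in late 1. No library had an H3K27me3 peak within 2500 bp of the Pck1 start. Of 21887 promoters, 3727 had an H3K27me3 peak in 2 or more libraries, so a start without one is common. A cause of the H3K4me3 loss at Pck1 was not tested.

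Other genes of the pathways were read from 3 lists in late against Hep, where 3.07% of promoters were lower and 3.32% higher for H3K4me3, and 19.2% were lower and 4.47% higher for H3K27ac. Of 19 hepatic glucose and fructose enzymes (the 4 members not among them), 17 were tested for H3K4me3 and 3 were lower, and 18 for H3K27ac with 6 lower, and none was higher. The list medians were -1.28 and -1.08, beside -0.66 and -0.81 for all promoters. Gys2, the liver glycogen synthase, had 1384 ± 98.3 bp of H3K4me3 in Hep and 58 ± 59 in late (SD, n = 2 and 3, limma, adjusted p = 0.000954). G6pc, the catalytic subunit of glucose-6-phosphatase, which releases free glucose, had 859 ± 272 bp in Hep and none in late (0.00119). H3K27ac was lower at Sord, sorbitol dehydrogenase, with 843 ± 66.5 bp in Hep and 102 ± 91.2 in late (0.00733), and at Gckr, the glucokinase regulator that responds to fructose phosphates, with 790 ± 57.3 and 131 ± 17.5 (0.00894).

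Of 27 genes of general glycolysis and non-hepatic isoenzymes, 25 were tested for H3K4me3, with 2 higher and none lower, and 23 for H3K27ac, with 5 lower and 2 higher. The medians were -0.50 and -0.66. The share lower for H3K27ac is near that of all promoters (19.2%), so it says little about this list. The higher ones were isoenzymes of other tissues without a peak in Hep. Ldhb, lactate dehydrogenase B, had 431 ± 223 bp of H3K4me3 in late (SD, n = 3, limma, adjusted p = 0.0432) and Hk2, hexokinase 2, 386 ± 275 (0.0381). Hk1, hexokinase 1, had 466 ± 230 bp of H3K27ac (0.00743) and Pfkp, platelet phosphofructokinase, 414 ± 136 (0.012). With equal numbers of top-scored peaks Hk1 was at 0 difference and the other 3 did not pass (adjusted p 0.154 to 0.219). Lower H3K27ac was found at Ldha, lactate dehydrogenase A (1070 ± 26.2 bp in Hep and 110 ± 95.6 in late, 0.00724), Slc16a1, a lactate carrier (0.034), Pfkfb2 (0.0207) and Gapdh (0.0108), and after quantile normalization Slc16a1, Pfkfb2 and Gapdh did not pass (0.176, 0.244 and 0.216).

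Of 17 regulators of hepatic glucose output, 14 were tested for each mark, with 1 lower for H3K4me3 and 4 for H3K27ac and none higher, at medians of -1.26 and -1.32. H3K27ac was lower at Creb3l3, a fasting-induced factor, with 1504 ± 92.6 bp in Hep and 147 ± 158 in late (SD, n = 2 and 3, limma, adjusted p = 0.0182). Irs1, an insulin receptor substrate (0.0287), and Foxo1, the insulin-restrained activator of gluconeogenic genes (0.0231), were lower too and did not pass after quantile normalization (0.151 and 0.113). With peaks resized to 500 bp, the 3 lists had 1, 0 and 0 lower for H3K4me3 and 0, 1 and 1 for H3K27ac, and the glycolysis and regulator medians for H3K4me3 turned to 0.73 and 0.07 beside 0.49 for all promoters.

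The genes with the most alike pattern were taken by Pearson's r over 22 values, the 11 H3K4me3 and 11 H3K27ac libraries, each mark centred on its own mean. The values share libraries and stages, so r is a description. Pck1 was most like Ddc (0.969; the gene for dopa decarboxylase, not the diet), Uroc1 (0.941) and Pglyrp2 (0.938). Slc2a2 was most like C8a (0.905), C1s1 (0.904) and Rtp3 (0.894), Pklr like Cmtm8 (0.878), F2 (0.877) and Anxa5 (0.871), and Fbp1 like Qprt (0.877), Lrrc61 (0.865) and Rarres2 (0.864). Among the members r ran from 0.552 between Fbp1 and Slc2a2 to 0.762 between Pck1 and Slc2a2, below the r of each with its 3 most alike genes.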

How the data were processed

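The data were 44 peak lists in mm10 coordinates, 11 for each of 4 histone marks. Each list gave a start, an end and a score per peak as deposited by the authors, and no definition of the score is stated. Bowtie2, Picard, deepTools and MACS2 are named in the submitters' processing notes, with no versions and no parameters. Peaks were deposited per library, and read depth is unknown.

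Genes were taken from the RefSeq table of GRCm38.p6 (the patch release of mm10), with 17492 of 21887 protein-coding genes placed at a RefSeq start and 4395 at an end of the gene. Among several RefSeq starts, or the 2 ends of a gene, the one with most H3K4me3 and then most H3K27ac was used. These were summed over all 11 libraries of each mark without regard to stage. Strand was not used for gene ends, so some of the 4395 may not be starts. They enter the shares and medians of all promoters. Of 1341191 peaks, 1210 (0.0902%) on other contigs were left out. The bases covered by peaks within 2500 bp of the start, and over the gene with 25 kb on each side, were computed per library with Python 3.11.15, numpy 2.4.6 and pandas 2.3.3. They were compared as log2(bp + 100) with limma 3.58.1 in R 4.3.3 (lmFit, eBayes) in a fit of 5 stages, over genes with a peak in at least 2 of 11 libraries, with Benjamini-Hochberg adjustment over all of them and a threshold of 0.05. A difference on this scale understates the change of low values. The fit was tested on simulated data with independent noise and no stage-wide shift in coverage, so that test does not cover such shifts.

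The 4 genes, the pathway lists and the marker lists were chosen with earlier results of these data known. Named were the 4 genes, up to 4 genes per list and direction with the largest change passing in late minus Hep for H3K27ac or H3K4me3, and the 3 genes most alike in pattern to each member; 1 gene that the rule takes is not reported here. Alternatives changed the added constant, the filter, the scaling (quantile normalization, equal numbers of top-scored peaks, peaks resized to 500 bp), the window and the libraries used, or added the replicate number as a block.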

Additional observations from a re-analysis of the deposited data

Results flagged for a closer look

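H3K27me3 had peaks over the Pck1 locus in 2 libraries while neither Hep library had any. BEC 1 held 784 bp in 3 peaks, none within 2500 bp of the Pck1 start, at -18592 to -18320, 19030 to 19245 and 24544 to 24838 bp from it. Late 3 held 168 bp in 1 peak at 3042 to 3209 bp, inside the gene. BEC 2 and the other late libraries had no H3K27me3 peak there. The locus differences did not pass in BEC minus Hep (limma, adjusted p = 0.465), late minus Hep (adjusted p = 0.863) or BEC minus late (1.10, adjusted p = 0.759).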

How the results depend on the processing

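The number of the 4 genes called lower changed as follows, with the count as reported in brackets and comparisons with Hep unless another stage is named. With equal numbers of top-scored peaks, H3K4me3 at the start gave 0 in late against early [1], 1 in late [2] and 1 in BEC [2], H3K27ac 1 in late [2], and H3K4me1 0 in late [2] and 0 in BEC [2]. Over the locus this setting gave 0 in late against early for H3K4me3 [2] and 0 in BEC against late for H3K27ac [1]. With no filter, H3K4me3 at the start gave 1 in late and 1 in BEC, H3K27ac 0 in early [1] and 1 in late, H3K4me1 0 in late and 1 in BEC, and H3K4me3 over the locus 0 in late against early, 1 in late [2] and 0 in BEC [3]. After quantile normalization, H3K4me3 at the start gave 1 in late and 4 in BEC, H3K27ac 0 in early and 1 in late, H3K4me1 0 in late and 0 in BEC, H3K4me3 over the locus 1 in late against early, and H3K27ac over the locus 0 in late [3]. With peaks resized to 500 bp, H3K4me3 at the start gave 1 in late and 1 in BEC, H3K27ac 0 in late and 1 in BEC [3], H3K4me1 0 in late and 0 in BEC, H3K4me3 over the locus 1 in late against early, 1 in late and 1 in BEC, and H3K27ac over the locus 0 in late. A window of 1000 bp gave 1 in late for H3K4me3, and 0 in early and 1 in late for H3K27ac, and 10 kb around the gene gave 1 in late against early for H3K4me3. Without the short-peak libraries, late gave 1 for H3K4me3 and 1 for H3K27ac at the start, 0 for H3K4me1 and 1 for H3K27ac over the locus, and H3K4me3 over the locus gave 1 in late against early, 1 in late and 1 in BEC. With 500 bp added in place of 100, H3K27ac at the start gave 3 in early and 4 in late, and H3K4me3 over the locus 1 in late against early. With the replicate number as a block, late gave 1 for H3K27ac at the start, 1 for H3K4me1 and 1 for H3K27ac over the locus, and late against early gave 1 for H3K4me3 over the locus. The block is given for completeness, and whether same-numbered libraries share an animal or day is not stated. At the start, deviations of same-numbered libraries from their stage means correlated at -0.058 to 0.098 for H3K27ac and -0.024 to 0.213 for H3K4me3. For H3K4me1 the range was -0.185 to 0.124 and for H3K27me3 -0.254 to 0.098. With 2 libraries in a stage these deviations mirror each other, so the correlations cannot decide the pairing. Leaving out 1 library at a time, H3K4me3 at the start gave 0 to 2 in late against early, 1 to 2 in late and 1 to 3 in BEC, H3K27ac 0 to 2 in early, 0 to 2 in late and 1 to 3 in BEC, and H3K4me1 0 to 2 in late and 0 to 2 in BEC. Over the locus the ranges were 1 to 2, 2 to 2 and 1 to 3 for H3K4me3 in late against early, late and BEC, and 0 to 3, 0 to 1 and 2 to 3 for H3K27ac in late, BEC against late and BEC. Where a stage was left with 1 library, that library was assumed to vary like the others. Of 549 alternatives to 29 called differences of single genes, 403 kept the call, 145 lost it and 1 reversed, Pck1 H3K4me1 in late minus Hep with equal numbers of top-scored peaks (0.56, adjusted p = 0.646), and the cause was not tested. Genes called among all tested at the start ranged over 8 settings from 208 to 2033 for H3K4me3 (862 as reported), 685 to 4959 for H3K27ac (2979) and 255 to 6794 for H3K4me1 (5527) in late, from 562 to 2072 (1647), 1097 to 3878 (2622) and 228 to 5922 (4904) in BEC, and from 8 to 495 (89), 131 to 4492 (3186) and 0 to 5711 (4507) in early. Peak lists without reads limit all of this, since a base outside a peak is not a base without the mark.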
